A study of Mus musculus with 6 samples.

Results

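The 10 genes described here restrain or report signalling through the RAS-ERK cascade: the phosphatase genes Dusp4, Dusp5 and Dusp6, the Sprouty genes Spry1, Spry2 and Spry4, the SPRED genes Spred1 and Spred2, and the transcription factor genes Etv4 and Etv5. They were chosen by name and matched to the gene symbols of the array's probe annotation, where 11 probes carried them, with a pair of probes for Spred1 and a single probe for each of the other 9. All 10 were among the 17390 genes tested. RNA was taken from cultured oligodendrocyte precursor cells, which give rise to myelinating glia, prepared from forebrains of Jcl:ICR mouse embryos at stage E15.5. All cultures were kept in FGF2 and PDGF-AA, ligands whose receptors feed into RAS and ERK. Cells were harvested 3 days after infection: 3 samples received a Chd7 knockdown retrovirus (Chd7 KD) and 3 a control retrovirus (Control), each read on its own one-colour array. The knockdown sequence and the share of infected cells are not given in the sources used here, and the control virus shared the medium and the infection but not the knockdown.

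Receptor tyrosine kinases such as the FGF and PDGF receptors load RAS with GTP, which starts the RAF, MEK and ERK kinase relay. Active ERK raises transcription of its own brakes, so that transcripts of these brakes are widely used as readouts of the pathway. Dusp6 encodes a cytoplasmic phosphatase that removes the activating phosphates from ERK, while the products of Dusp4 and Dusp5 do so in the nucleus. Sprouty proteins act between the receptor and RAF. SPRED proteins bring neurofibromin, which switches RAS off, to the membrane. Etv4 and Etv5 encode ETS-family factors induced by FGF signalling.

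The start regions of these genes are shown for the 2 members that passed the test, Dusp6 and Spred1, and for Dusp5, whose window holds a pair of serum response elements. Each window runs from 250 bases before to 50 after an annotated start, 5′ to 3′ on the gene's strand, from RefSeq (GRCm38.p6). The Dusp6 window lies at chr10:99262981-99263280 (+ strand), the Spred1 window at chr2:117120821-117121120 (+ strand) and the Dusp5 window at chr19:53528895-53529194 (+ strand). Capitals mark GGAA on either strand, the minimal core bound by ETS factors, and the CArG box, the site of serum response factor.
Dusp6: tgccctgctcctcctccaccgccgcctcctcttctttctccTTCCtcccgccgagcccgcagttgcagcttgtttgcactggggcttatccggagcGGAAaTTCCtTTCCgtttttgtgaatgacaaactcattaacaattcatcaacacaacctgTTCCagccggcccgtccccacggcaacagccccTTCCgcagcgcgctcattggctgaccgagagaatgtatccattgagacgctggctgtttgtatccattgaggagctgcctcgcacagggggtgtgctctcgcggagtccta
Spred1: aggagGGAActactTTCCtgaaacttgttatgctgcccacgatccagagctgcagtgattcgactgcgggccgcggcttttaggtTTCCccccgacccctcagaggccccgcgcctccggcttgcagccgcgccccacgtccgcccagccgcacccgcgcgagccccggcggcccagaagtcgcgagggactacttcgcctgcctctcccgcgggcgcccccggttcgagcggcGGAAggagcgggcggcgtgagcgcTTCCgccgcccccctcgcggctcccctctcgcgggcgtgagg
Dusp5: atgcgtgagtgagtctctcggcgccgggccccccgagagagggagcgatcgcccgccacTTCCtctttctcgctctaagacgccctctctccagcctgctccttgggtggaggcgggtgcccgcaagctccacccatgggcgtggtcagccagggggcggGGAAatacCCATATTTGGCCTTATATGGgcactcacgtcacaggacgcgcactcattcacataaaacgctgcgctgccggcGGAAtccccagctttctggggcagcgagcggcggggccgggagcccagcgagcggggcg

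RefSeq windows were used for 7 of the 10 genes, 8 windows in all. No window was used for Dusp4, Spry4 or Etv4. The search for the 10 genes skipped a chromosome that the background of all windows kept, so any window there was missed. The Dusp6 window holds 6 GGAA cores, of which those at -154, -149 and -144 from the start lie close together, against a median of 3 over all 32851 windows. The Spred1 window holds 5, and at least 1 core is found in 96% of all windows, so such counts describe the sequence and nothing more. The adjoining CArG boxes of Dusp5 begin at -82 and -72 from the start. They are the only CArG matches in the 8 windows, and 1.63% of all windows hold one. The longer ETS core CCGGAA, which contains GGAA, was found on either strand in only the Spry2 window of the 8, against 14.9% of all windows. None of the 8 windows held the cyclic AMP element TGACGTCA or the AP-1 site TGANTCA, sought on both strands. These were found in 1.79% and 7.81% of all windows. The windows were rich in CpG, with 17 to 40 CpG dinucleotides, against a median of 7.

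The arrays' raw medians were 83.5 to 89.4 in the knockdown samples and 83.4 to 85.7 in the controls, and 87.0% to 89.8% of probes exceeded the blank spots by 2 SD. Chd7, the knockdown's target, read 8.54, 8.44 and 8.48 on the log2 intensity scale in Chd7 KD samples and 9.44, 9.20 and 9.47 in Control samples. That is the brighter Chd7 probe, with a log2 fold change of -0.88. The dimmer probe fell less, by -0.48, and read 7.20, 7.23 and 7.15 in the knockdown and 7.81, 7.605 and 7.62 in the controls. Whether the replicates were separate cultures is not stated in the labels, and the p-values cover only the variation among these arrays, part or all of which may be technical. Of 7 tested oligodendrocyte precursor markers 4 fell (Pdgfra, Cspg4, Olig2, Sox10) and none rose, against 5.15% lower and 4.49% higher of all genes. The mean log2 level of the 7 per array was 8.49 to 8.55 in the knockdown and 8.94 to 8.999 in the controls. In these bulk samples fewer cells of a type and less RNA per cell cannot be told apart. Of the astrocyte markers Aldoc, Gja1 and Slc1a3 were bright, while Gfap was near the floor (means of 5.92 in the knockdown and 5.87 in the controls). None of the 8 passed, with array means of 9.52 to 9.63 in the knockdown and 9.51 to 9.61 in the controls. Neuron markers averaged 6.36 to 6.50 in the knockdown and 6.35 to 6.51 in the controls, where only Map2 passed (-0.12), while none of the 7 microglia, 4 endothelial and mural and 6 fibroblast markers tested did so. The microglial Itgam and the vascular Pecam1, Cldn5, Tek and Kcnj8 were not above the blank spots on enough arrays to be tested. With the replicate number as a block, further markers passed in both directions: Gja1 (0.44, limma adjusted p = 0.00897) and Slc1a2 (-0.47, 0.0163) of astrocytes, Syt1 (0.20, 0.017) and Tubb3 (-0.20, 0.033) of neurons, Olig1 (-0.24, 0.0371) and Nkx2-2 (-0.20, 0.0273) of the precursors, and Anpep (0.21, 0.032) of the endothelial and mural list. The part of cell composition in the changes below was not tested.

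Of the 10 ERK feedback genes, Dusp6 rose, Spred1 fell and 8 did not pass. The call was an adjusted p below 0.05 in limma with Benjamini-Hochberg adjustment over all genes tested. Across the whole array 9.64% of genes passed, 4.49% higher and 5.15% lower, so 1 rise and 1 fall among 10 genes is a count near the background. The median log2 fold change of the 10 was 0.0050, against 0.00077 over all genes. The knockdown and control arrays did not overlap for 2 of the 10, the same genes Dusp6 and Spred1, against 29.9% of all genes tested. Over the whole array 781 genes rose and 896 fell, and in the authors' processed values 299 rose and 678 fell, a split that leaned further down.

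Dusp6, the ERK-directed phosphatase, moved furthest. Its log2 intensity was 10.76, 10.67 and 10.77 in Chd7 KD samples, against 10.11, 9.98 and 9.81 in Control samples. Every knockdown array thus lay above every control array. The means were 10.73 ± 0.056 in Chd7 KD and 9.97 ± 0.15 in Control (SD, n = 3 each), a log2 fold change of 0.77 (SE 0.088, limma adjusted p = 0.00189), or 1.70-fold. In the authors' processed intensities the same probe read 1315, 1175 and 1229 in the knockdown and 792, 740 and 687 in the controls, a 1.68-fold rise (limma adjusted p = 0.0129 on log2 of the value plus 1). Leaving out any 1 array left the log2 fold change between 0.69 and 0.84, with limma adjusted p at most 0.0111. The slope that joins the scanner's gains, given in the file headers, split the arrays into sets of 3. Within the set of lower slope, 1 knockdown and 2 control arrays, the Dusp6 log2 fold change was 0.63 (limma adjusted p = 0.167), and within the set of higher slope, 2 knockdown and 1 control, it was 0.95 (0.0591). With the slope set as a block it was 0.79 (0.0053).

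Of the other phosphatase genes, Dusp4 did not follow Dusp6, and the Dusp5 probe was too dim to tell. Dusp4, a nuclear phosphatase gene, read 7.001, 7.08 and 7.18 in Chd7 KD samples and 7.04, 7.08 and 6.99 in Control samples. The groups overlapped, and the log2 fold change of 0.05 had a 95% interval of -0.08 to 0.18 (limma adjusted p = 0.665). Dusp5, a nuclear phosphatase specific to ERK, read 5.92, 5.88 and 5.88 in the knockdown and 5.86, 5.93 and 5.91 in the controls. This probe was dim, at 66.6 to 70.2 raw units in the knockdown and 64.8 to 68.6 in the controls, where the detection limits were 62.5 to 64.0 in the knockdown and 60.6 to 63.0 in the controls. Its log2 fold change of -0.0090 is therefore weakly informative, and the interval in the authors' values was -0.48 to 0.33.

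**Figure D1:**
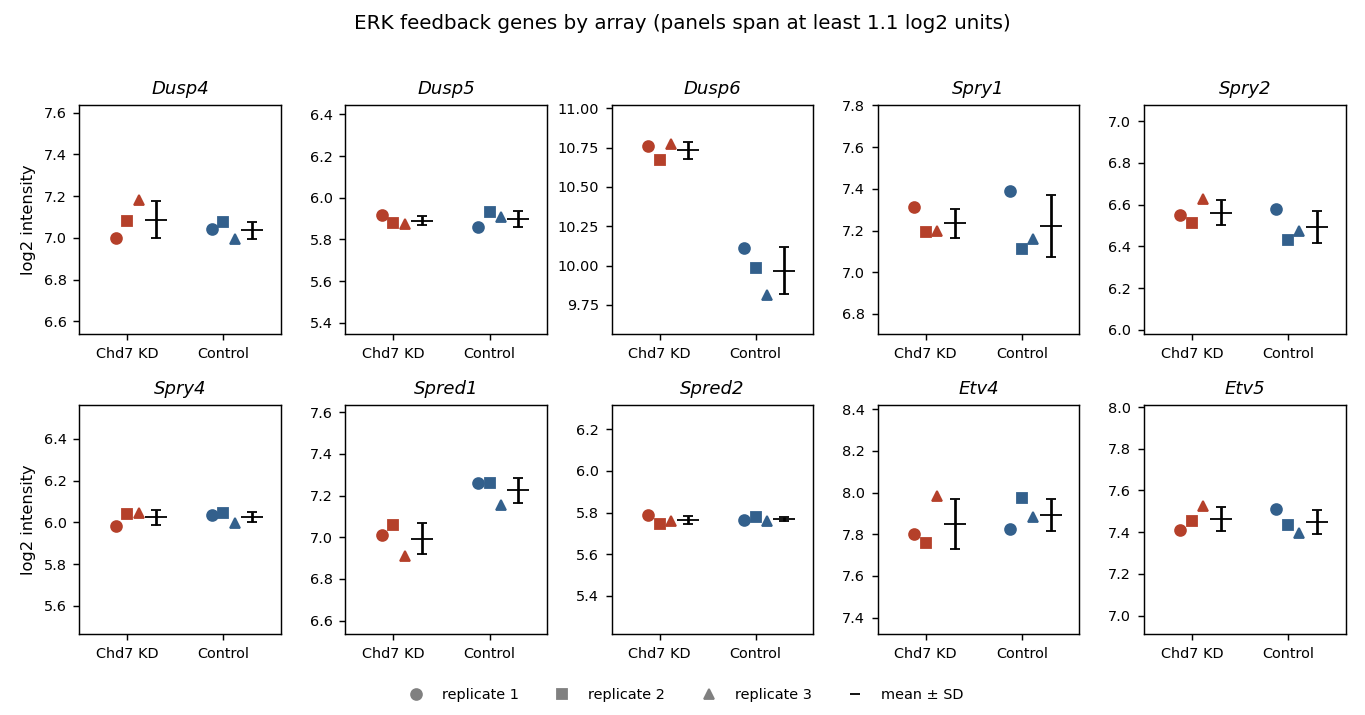
Log2 intensity (y axis) of the 10 ERK feedback genes on each array, Chd7 KD (left) and Control (right), with replicate number by symbol and the mean ± SD (n = 3) as a bar. The groups are apart for Dusp6 (Chd7 KD 10.67 to 10.77, Control 9.81 to 10.11) and Spred1 (Chd7 KD 6.91 to 7.06, Control 7.15 to 7.26) and overlap for the other 8.

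None of the Sprouty genes passed. Spry1, an inhibitor of receptor signalling, read 7.31, 7.19 and 7.20 in Chd7 KD samples and 7.39, 7.11 and 7.16 in Control samples. In both groups the array numbered 1 was the highest, and the log2 fold change was 0.01 (95% interval -0.16 to 0.19, limma adjusted p = 0.947). Spry2, a close relative that binds the ubiquitin ligase CBL, read 6.55, 6.51 and 6.63 in the knockdown and 6.58, 6.43 and 6.47 in the controls. Its log2 fold change was 0.07 (95% interval -0.05 to 0.18, limma adjusted p = 0.469), with an interval of -0.13 to 0.44 in the authors' values. Spry4, a Sprouty gene used like Dusp6 as an ERK readout, read 5.98, 6.04 and 6.05 in the knockdown and 6.04, 6.05 and 5.998 in the controls. It was dim, and the authors' values of 9, 10 and 11 in the knockdown and 10, 11 and 9 in the controls gave a log2 fold change of 0 with an interval of -0.26 to 0.26.

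Spred1, which brings neurofibromin to the membrane and so limits RAS, was lower in the knockdown on its brighter probe. This probe read 7.01, 7.06 and 6.91 in Chd7 KD samples, against 7.26, 7.26 and 7.15 in Control samples. The groups did not overlap, though their nearest arrays lay closer to each other than the outer arrays of either group. The means were 6.99 ± 0.076 in Chd7 KD and 7.22 ± 0.061 in Control (SD, n = 3 each), a log2 fold change of -0.23 (SE 0.0591, limma adjusted p = 0.0419). The dimmer probe read 7.06, 6.96 and 6.95 in the knockdown and 7.18, 7.06 and 7.02 in the controls, with overlapping groups, and did not pass (-0.09, SE 0.0591, limma adjusted p = 0.385 over all probes, where 8.85% of probes passed and the brighter one had 0.0426). The mean of both probes gave -0.16 (limma adjusted p = 0.0998). Both probes read alike in the knockdown, and the brighter one exceeded the other on every control array. Its choice to represent the gene thus rested on the control arrays and favoured a fall. The call rested on having all arrays: the adjusted p was 0.109, 0.0696 and 0.135 without knockdown replicates 1, 2 and 3, and 0.0843 and 0.124 without control replicates 1 and 2. It held without control replicate 3 (0.0475). The fold was larger but did not pass in the authors' values (-0.39, limma adjusted p = 0.0805), and with the scanner slope as a block it was -0.20 (0.0784).

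Spred2, a close relative of Spred1, could not be judged at this signal. Its probe exceeded the detection limit on 1 of 3 knockdown and 2 of 3 control arrays, with 61.9 to 64.6 raw units in the knockdown and 61.4 to 63.0 in the controls. Its log2 intensity was 5.79, 5.75 and 5.76 in Chd7 KD samples and 5.77, 5.78 and 5.76 in Control samples. On the authors' scale the interval of its log2 fold change ran from -0.85 to 0.74.

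The ETS factor genes did not pass. Etv4 read 7.80, 7.76 and 7.98 in Chd7 KD samples and 7.82, 7.97 and 7.88 in Control samples, a log2 fold change of -0.04 (95% interval -0.22 to 0.13, limma adjusted p = 0.777). Etv5 read 7.41, 7.45 and 7.52 in the knockdown and 7.51, 7.44 and 7.40 in the controls, a log2 fold change of 0.01 (95% interval -0.12 to 0.15, limma adjusted p = 0.925). Both probes were above the limit on all arrays, and in the authors' values the upper ends of their intervals were 0.11 for Etv4 and 0.14 for Etv5. The rise of Dusp6 had a 95% interval of 0.57 to 0.97, and the highest upper end among the 8 genes that did not pass was 0.19, for Spry1. The offset added before taking logs shrinks changes of dim probes, and on the authors' scale the highest upper end was 0.74, for Spred2, followed by 0.44 for Spry2. The interval of Dusp6 on that scale was 0.55 to 0.94.

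**Figure D2:**
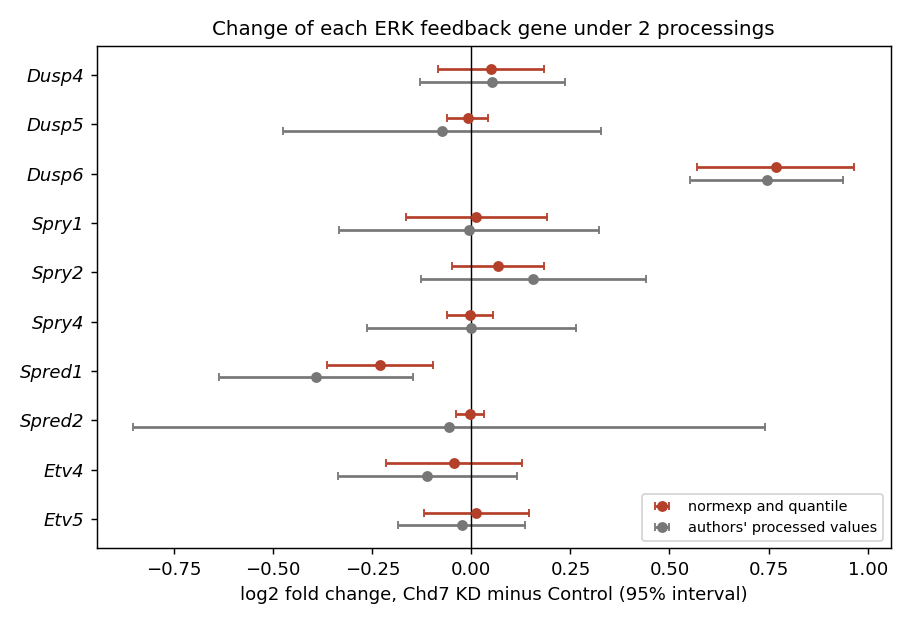
Log2 fold change, Chd7 KD minus Control, of the 10 ERK feedback genes (x axis) with 95% intervals, from background-corrected and quantile-normalized intensities (red) and from the authors' processed values (grey). Dusp6 stands at 0.77 and 0.75, apart from the other genes, and the grey intervals of the dim probes of Dusp5 and Spred2 are the widest.

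The genes around this feedback loop were taken as 7 lists by role, 96 genes of which 85 were tested. Of these, 8 rose and 3 fell, which is 12.9% against 9.64% of all genes, and the median log2 fold change was 0.0042. The replicate number, which may pair the arrays, was also entered as a block. The count was then 20 of the 85, 13 that rose and 7 that fell, against 2577 of 17390 genes (14.8%). The block left the calls among the 10 feedback genes as they were. The other 11 listed genes were not analysed here.

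At the top of the pathway Pdgfra, which encodes the receptor that PDGF-AA binds, fell to 9.27, 9.04 and 9.23 in Chd7 KD samples, against 10.65, 10.37 and 10.61 in Control samples. The groups lay far apart (log2 fold change -1.36, SE 0.098, limma adjusted p = 4.21e-04). The FGF receptor genes, whose products bind FGF2, did not pass. Fgfr1 had a log2 fold change of -0.01 (95% interval -0.14 to 0.12), Fgfr2 of 0.09 (-0.02 to 0.19) and Fgfr3 of 0.02 (-0.11 to 0.15). On the authors' scale the intervals were -0.25 to 0.14 for Fgfr1, -0.05 to 0.42 for Fgfr2 and -0.46 to 0.65 for Fgfr3. The Fgfr3 value is therefore weakly informative. Pdgfc, a PDGF ligand gene, rose by 0.36 (limma adjusted p = 0.011), and Fgfrl1, an FGF receptor without a kinase domain, read 0.13 without passing. So 1 of 13 receptor and ligand genes tested rose and 1 fell, against 4.49% and 5.15% of all genes.

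Among the adaptors that link receptors to RAS, 1 of 12 passed, against 9.64% of all genes. Crk, an adaptor that binds phosphorylated docking proteins, rose by 0.29 (limma adjusted p = 0.0345). It did not pass without any one of knockdown replicates 1, 2 or 3 or control replicates 2 or 3 (adjusted p 0.0688 to 0.117), after median scaling (0.204) or on the authors' scale (0.0847). Shc3 read -0.16 and Ptpn11, which encodes the phosphatase SHP2, -0.09. Neither passed, nor did the adaptor gene Shc1 (0.15, limma adjusted p = 0.243). With the replicate block 2 genes of this list were higher, Crk (0.0233) and Shc1 (0.00972), and 1 was lower, Ptpn11 (0.0333). Ptpn11 was near the floor (means of 5.98 in the knockdown and 6.07 in the controls), and Shc1 was dim (6.31 and 6.16).

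In the kinase relay itself the MEK genes moved in opposite directions. Map2k1, which encodes MEK1, read 9.78, 9.77 and 9.65 in Chd7 KD samples, against 8.76, 9.11 and 8.95 in Control samples. The knockdown arrays were all higher, by 0.80 on the log2 scale (SE 0.0946, limma adjusted p = 0.00203), a change of about the size seen for Dusp6. Map2k2, which encodes MEK2, read 9.28, 9.43 and 9.34 in the knockdown, against 9.88, 9.67 and 9.70 in the controls. Here the knockdown arrays were all lower, by a log2 fold change of -0.40 (SE 0.0809, limma adjusted p = 0.0173), a call lost without knockdown replicate 1 (0.0707) or 3 (0.0581). Nras (0.24) and Araf (0.21), a RAS and a RAF gene, did not pass but did so with the replicate block (0.043 and 0.0283). Of 7 genes of this relay tested, 1 rose and 1 fell, against 4.49% and 5.15% of all genes.

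**Figure D3:**
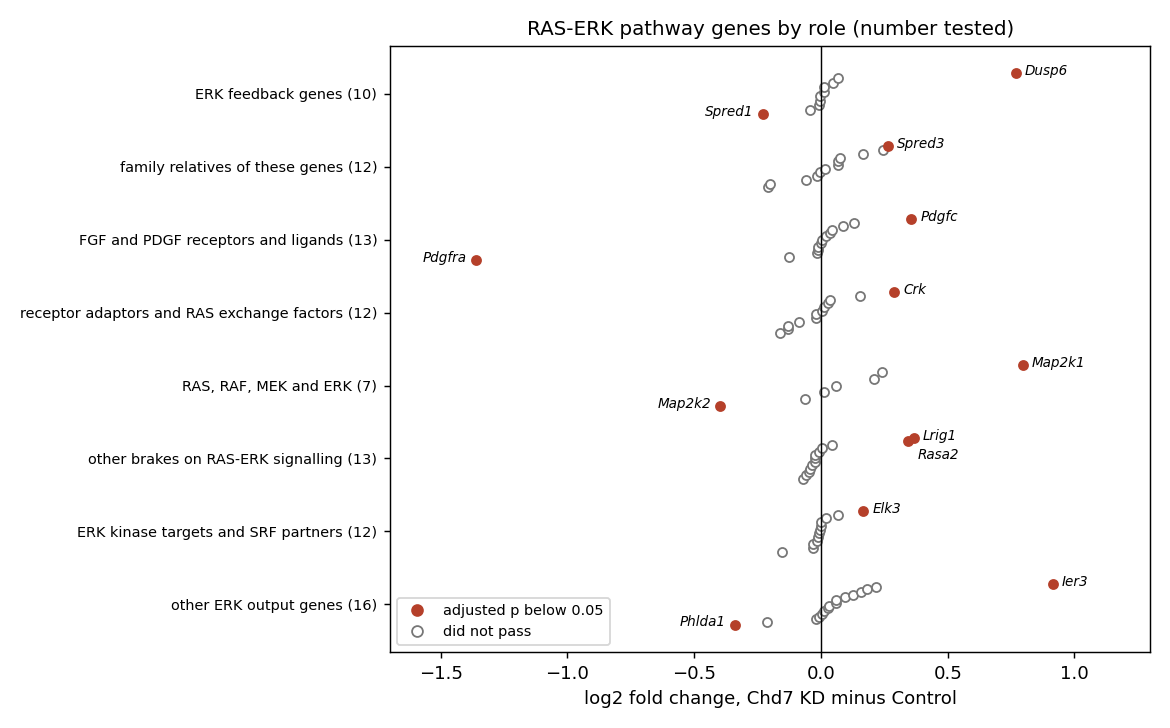
Log2 fold change, Chd7 KD minus Control (x axis), of each tested gene of the feedback group and the 7 pathway lists, 1 row per list with the number tested in brackets. Filled points passed at an adjusted p below 0.05, and most genes lie near 0 while Pdgfra (-1.36), Map2k1 (0.80), Dusp6 (0.77) and Ier3 (0.91) stand apart.

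Relatives of the feedback genes gave 1 rise among 12, against 4.49% of all genes. Spred3, a further SPRED gene, read 7.79, 7.79 and 7.64 in Chd7 KD samples, against 7.54, 7.46 and 7.42 in Control samples. It thus went up (log2 fold change 0.26, SE 0.0644, limma adjusted p = 0.0344) where the brighter Spred1 probe went down, with the limit that it did not pass without knockdown replicates 1 (0.119) or 2 (0.122) or control replicates 2 (0.103) or 3 (0.0955), after median scaling (0.0536) or on the authors' scale (0.11). Dusp7, which like Dusp6 encodes a cytoplasmic ERK phosphatase, read -0.21 (limma adjusted p = 0.0676), opposite in sign to Dusp6, and passed with the replicate block (0.0387). Dusp1, a stress-induced phosphatase gene, read 0.24 (0.087, and 0.0194 with the block). Etv1, which belongs to the subfamily of Etv4 and Etv5, read -0.20 (0.0812).

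Of 13 other brakes on the pathway 2 rose, against 4.49% of all genes. Lrig1, a membrane protein that lowers the level of receptor tyrosine kinases, rose by 0.37 (limma adjusted p = 0.0377), and Rasa2, a RAS GTPase-activating protein gene, by 0.34 (0.0258). Neither passed after median scaling (0.139 for Lrig1, 0.0561 for Rasa2) or on the authors' scale (0.12 for Lrig1, 0.118 for Rasa2). Lrig1 passed without control replicate 2 only (0.0675 to 0.123 without each of the other 5 arrays). Rasa2 was lost without knockdown replicates 1 (0.0851) or 2 (0.0579) or control replicate 2 (0.0913). The neurofibromin gene Nf1, through which SPRED proteins act, had a log2 fold change of -0.0093, with mean log2 intensities of 5.78 in the knockdown and 5.79 in the controls, near the floor.

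Among the nuclear ETS and SRF partner genes tested with the ERK-activated kinases, 1 of 12 passed, against 9.64% of all genes. Elk3, an ETS partner of serum response factor, rose by 0.17 (limma adjusted p = 0.0432), a call lost when any 1 array was left out (0.0759 to 0.135). Ets1, an ETS factor gene, had a log2 fold change of -0.16 and did not pass (limma adjusted p = 0.0506, and 0.0329 with the replicate block).

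Among other transcripts that ERK activity is known to raise, 1 of 16 tested rose and 1 fell, against 9.64% of all genes in either direction. Of the 16, 12 had a positive log2 fold change, with a median of 0.05, and 6 had groups that did not overlap, against 29.9% of all genes. Ier3, an immediate early gene of cell survival, read 9.06, 8.67 and 8.93 in Chd7 KD samples, against 8.03, 8.06 and 7.83 in Control samples. Its knockdown arrays were all higher (log2 fold change 0.91, SE 0.106, limma adjusted p = 0.00197). Phlda1, which is grouped with Dusp6, Spry2, Spry4, Etv4 and Etv5 in signatures of MAP kinase output, read 7.14, 7.19 and 7.17 in the knockdown, against 7.47, 7.45 and 7.60 in the controls. It fell, by a log2 fold change of -0.34 (SE 0.0581, limma adjusted p = 0.00844). The cyclin gene Ccnd1 read 10.47, 10.73 and 10.85 in the knockdown and 10.39, 10.58 and 10.53 in the controls, with overlapping groups (0.18, 95% interval -0.06 to 0.42). Myc read -0.21 (limma adjusted p = 0.0635, and 0.0283 with the replicate block).

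**Figure D4:**
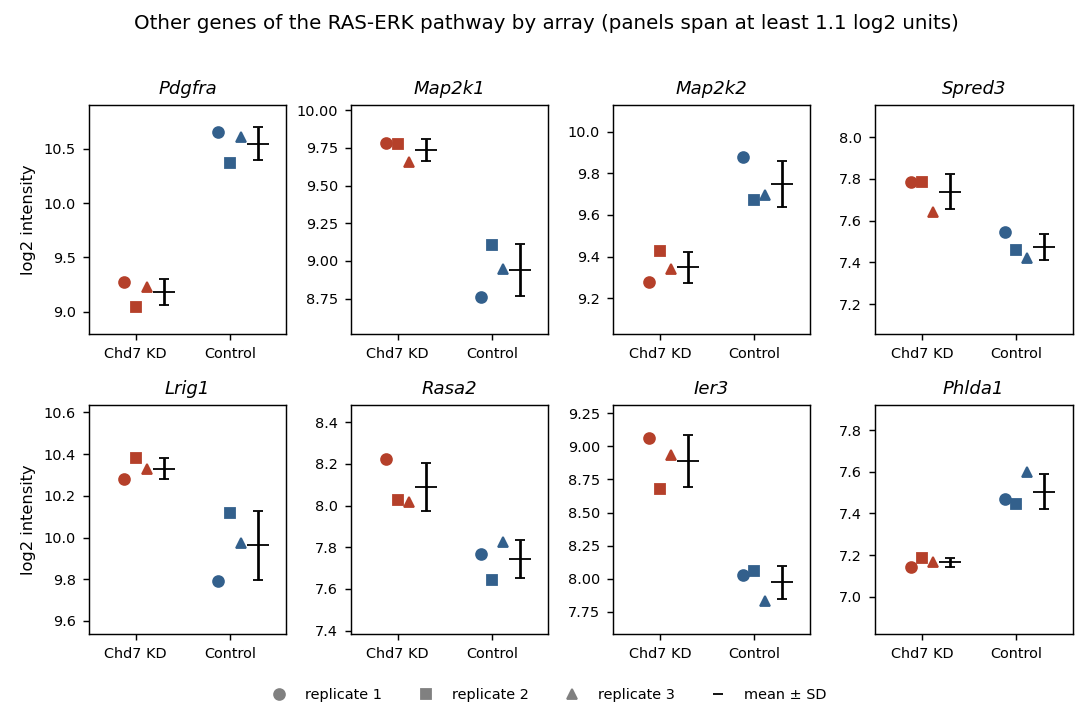
Log2 intensity (y axis) on each array, Chd7 KD (left) and Control (right), of 8 other RAS-ERK pathway genes that passed, with replicate number by symbol and the mean ± SD (n = 3) as a bar. In each panel the knockdown and control arrays do not overlap, with Pdgfra, Map2k2 and Phlda1 lower and the other 5 higher in the knockdown. The panels show 8 of the 11 pathway genes that passed, and 29.9% of all genes tested do not overlap.

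The genes whose levels followed Dusp6 most closely over the 6 arrays were Xxylt1, a xylosyltransferase gene (Pearson r = 0.9993), Cox7a2, a respiratory chain subunit gene (0.9985), and Lasp1, an actin-binding protein gene (0.9973). The points share the difference between the groups, and 6 arrays were searched over all genes, so this is a description. Their own log2 fold changes were 0.41, 0.20 and 0.37, of which that of Cox7a2 did not pass (limma adjusted p = 0.0559).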

How the data were processed

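Amplified RNA of 3 Chd7 KD and 3 Control samples carried Cy5, per the labels' protocols. Each deposited intensity is a spot's median at 635 nm, with readings at 3 gains joined, per the file headers. The authors' processed intensity values were used as an alternative, as log2 of the value plus 1. How these were made is not stated in the labels or headers, and entries of null (7.31% to 8.59% of an array) were left missing.

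Background was corrected by normexp on the spot signals alone (offset 50), followed by quantile normalization and averaging per probe in limma 3.58.1 (R 4.3.3). The local background followed the spot signal (correlation of logs 0.957 to 0.981) and was not used. Probes above the blank mean by 2 SD on at least 3 of 6 arrays were kept, less 1 marked bad at every gain. Of 23473 probes, 20690 had 1 symbol, 2783 none and 0 several. Each gene was represented by its brightest probe. Groups were compared with lmFit and eBayes with a trend, two-sided. Figures used matplotlib 3.10.9.

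Arrays of the same number deviated together from their group means (correlations 0.362, 0.382 and 0.228), so the numbers, though undefined in the labels, were treated as possible pairs. Their block, other corrections, scalings, filters and variance models, the scanner slope set and leaving out arrays were the alternatives. The members and lists were chosen with earlier results of these data known. Named genes were the 10 members, Chd7, of each pathway list the genes that passed or the 3 of smallest p, a fixed set of pathway genes, and the 3 genes most correlated with the member of smallest p. Dusp1, Nf1, Shc1 and the immediate early and marker genes named beyond this were chosen after their values were seen.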

Additional observations from a re-analysis of the deposited data

How the results depend on the processing

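Under 22 alternatives, Dusp6 kept its direction in each and passed in 20, with a log2 fold change of 0.63 to 0.95 (limma adjusted p 4.31e-04 to 0.167). The exceptions were the fits within either scanner slope set, where 2 arrays faced 1 whose spread was taken from the other group. At an unadjusted p below 0.05, 1 of the 10 members, Dusp6, passed in each set, against 12% of all genes in the lower and 18% in the higher slope set. The 2 passing members became 1, with 1 higher and 0 lower, with cyclic loess, in the authors' values, with the slope block, with the mean of a gene's probes and without both arrays numbered 1. In each of these Spred1 was the gene lost (adjusted p 0.0537 to 0.147). Leaving out 1 array gave 1 to 2 passing members, 0 to 1 lower, and 1 to 2 of the 11 probes, and the replicate block gave 2 members and 2 probes. The whole-array count of 1677 was 977 in the authors' values, 2577 with the replicate block, 39 within each slope set, 800 without both arrays numbered 1 and 750 to 1453 without 1 array. The 11 pathway genes that passed were 6 with median scaling, 6 in the authors' values, 20 with the replicate block, 1 and 2 within the lower and higher slope sets, 5 without both arrays numbered 1 and 5 to 11 without 1 array. The causes were not tested. None of the 16 named genes that passed changed direction in any alternative. The probe count was run only with the replicate block and leaving out arrays. Signal over background limits Dusp5, Spry4 and Spred2, and the replicate block changed no call among the members.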

Other observations

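Egr1 and Ier2, immediate early genes that rise soon after ERK activation, differed more between arrays of a group than between groups. Egr1, a zinc finger factor gene, read 7.43, 7.47 and 6.87 in Chd7 KD samples and 7.28, 7.88 and 6.66 in Control samples, the lowest value of each group on the array numbered 3. Its log2 fold change was -0.02 with an SE of 0.27, the largest among the tested genes of the 7 pathway lists. Ier2 read 7.46, 7.33 and 7.17 in the knockdown and 7.32, 7.54 and 7.08 in the controls, again lowest on the arrays numbered 3. Fos, a subunit of AP-1, read 6.79, 6.98 and 6.77 in the knockdown and 6.45, 6.83 and 6.62 in the controls, highest on the arrays numbered 2. Its log2 fold change of 0.22 did not pass (limma adjusted p = 0.199), and did with the replicate block (0.0232).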
